A study of Homo sapiens with 6 samples.

Results

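The transcription factors that drive mesenchymal transition, with vimentin as their classical read-out, were followed in RNA sequencing of the established human glioblastoma line U87-MG. The set was taken by symbol from the deposited gene table and holds 9 of its 61806 genes, namely SNAI1, SNAI2, SNAI3, ZEB1, ZEB2, TWIST1, TWIST2, PRRX1 and VIM. The factors bind DNA through zinc fingers (SNAI and ZEB), a basic helix-loop-helix (TWIST) or a homeodomain (PRRX1), and vimentin is an intermediate filament protein. The study compared 3 negative control libraries (NC, genotype labelled wildtype) with 3 libraries labelled GRIK1 siRNA (genotype labelled as a knockdown of GRIK1, a kainate-type glutamate receptor subunit). The sample titles speak of siRNA, the series description speaks of shRNA, and the methods list 3 siRNA sequences. The paper reports that siRNA1 silenced GRIK1 best and served in its later experiments. The labels themselves do not settle whether the numbers 1, 2 and 3 are replicates or sequences. They were used as replicate numbers. No age, allele or further agent is given for either group, and nothing says that the libraries came from separate cultures, so p-values measure only the spread among these 6 libraries.

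In epithelial cells, SNAI, ZEB and TWIST factors bind short DNA motifs called E-boxes at genes of cell junctions, among them CDH1, and switch them off while cells take on a motile, matrix-producing state. ZEB1 and ZEB2 are held down by the miR-200 family of microRNAs, which the ZEB proteins repress in return. Glioma cells are not epithelial, and in them the same factors are known mainly for the mesenchymal state of glioblastoma, for invasion and for resistance to treatment.

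TWIST1 fell in the libraries labelled GRIK1 siRNA, to 56.1% of its NC level, and it was the only gene of the set that passed the edgeR test with all 6 libraries, in which 3.09% of all genes tested passed. That call was lost without any of 5 single libraries and with the replicate number as a block, where 0 genes of the table passed. SNAI2, PRRX1 and TWIST2 lay lower in each of the 3 libraries labelled GRIK1 siRNA than in every NC library, at 72.0%, 78.0% and 66.7% of NC, without passing that test. Over all genes tested, 19.0% lay apart and lower in this way. ZEB1, ZEB2 and VIM overlapped between the groups, and their fitted levels lay between 98.5% and 110.4% of NC. SNAI1 and SNAI3 had at most 10 counts in any library. Without NC library 3, which stood apart from all others, SNAI2, PRRX1 and TWIST2 passed the test too, as did 35.2% of all genes tested.

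The targeted gene and the library that stood apart bear on every comparison. GRIK1 itself had 18, 9 and 8 counts across NC 1 to 3, against 15, 20 and 20 counts under the GRIK1 siRNA label, so it was not lower there. Its log2 CPM, the count scaled to library size, was 0.48 higher (two-sided exact permutation test, p = 0.4, where 0.1 is the smallest that 3 against 3 can give). Total counts lay between 11099909 and 14006968. NC library 3 correlated with the other NC libraries at 0.9644 to 0.9681 across genes (log2 CPM, genes not being independent replicates), against 0.9902 between NC libraries 1 and 2. In it 8.45% of counts fell on ribosomal protein genes, against 4.35% to 4.99% in the other 5. The line's markers VIM and CD44 were abundant, NES had 16 to 51 counts and SOX2 at most 4. Of 9 markers of immune, endothelial, neuronal and oligodendrocyte cells, 6 had at most 10 counts in any library, AIF1 and MOG among them at 0 throughout, and CD68 was the only marker above the expression filter (64 to 77 counts in NC, 94 to 116 in the other group). The neuronal marker RBFOX3 had 11, 18 and 17 counts in NC against 28, 26 and 44, and the oligodendrocyte marker MBP 10, 11 and 18 against 2, 6 and 6. The groups of both were apart, and neither passed in the edgeR fit without a filter (adjusted p = 0.191 and 0.0963). Those of CD68 were apart too, and higher under the GRIK1 siRNA label (adjusted p = 0.276 in edgeR). Over all genes tested, 38.5% did not overlap in either direction. The summed level of these 9 markers was 2.36 to 3.40 FPKM in NC and 3.75 to 4.47 FPKM in the other group. CD68 alone gave 2.11 to 3.21 and 3.44 to 4.06 FPKM of these sums. The part of these markers in the results was not tested. In bulk RNA, fewer cells of a type and less RNA per cell cannot be told apart.

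The miR-200 sequences are shown because they name the sites that set the ZEB pair apart from the rest of the set. The mature sequences come from RefSeq (GRCh38.p14), with the seed, bases 2 to 8, in capitals. The first 3 share a seed and so do the last 2.
hsa-miR-200b-3p: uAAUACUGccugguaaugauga
hsa-miR-200c-3p: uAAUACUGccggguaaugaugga
hsa-miR-429: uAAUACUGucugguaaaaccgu
hsa-miR-141-3p: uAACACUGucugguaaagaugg
hsa-miR-200a-3p: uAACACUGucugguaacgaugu

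The 3′ UTR of ZEB1 in the GENCODE 29 transcript examined, 1938 bases long, holds 5 matches to the seed AAUACUG and 3 to the seed AACACUG. That of ZEB2, 5370 bases long, holds 5 and 4. SNAI2 has 1 match, to AAUACUG, and the 3′ UTRs of TWIST1, TWIST2, PRRX1, SNAI1, SNAI3 and VIM have 0. A match is a description of the sequence and not evidence of regulation in these cells. A site for each seed is given for each ZEB gene, on the strand of the transcript, with the seed match in capitals. They lie in the last exon, at chr10:31527622-31527643 and chr10:31528035-31528056 for ZEB1 (plus strand) and at chr2:144389049-144389070 and chr2:144389233-144389254 for ZEB2 (minus strand) in GRCh38.
ZEB1, match to AAUACUG: ttttatcttatCAGTATTatca
ZEB1, match to AACACUG: atcatcagaatCAGTGTTtgtg
ZEB2, match to AAUACUG: ctaccatacatCAGTATTttta
ZEB2, match to AACACUG: aaaattttgtaCAGTGTTaagg

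Of 12 microRNA genes and host genes listed for the transition, 10 had 0 counts in all 6 libraries, including MIR200A, MIR200B, MIR200C, MIR141 and MIR429. The remaining loci were MIR205HG, with at most 1 count, and MIR34AHG, which was tested and differed by 0.078 on the log2 scale (adjusted p = 0.893, edgeR quasi-likelihood test with Benjamini-Hochberg adjustment), and by −0.23 without NC library 3 (adjusted p = 0.0134). Counts on these loci do not measure the mature microRNAs.

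The NC levels of the set spanned 0.06 to 981 FPKM. FPKM is the read count of a gene scaled to its exonic length and to the library's total. In NC the mean was 981 ± 137 FPKM for VIM (SD, n = 3, as for each mean below), which ranked 25 in the table. The factors followed far below it. SNAI2 was the most abundant factor at 63.4 ± 4.60 FPKM (rank 555), and TWIST1 was next at 35.3 ± 3.50 FPKM (rank 1104). PRRX1 had 17.2 ± 1.58 FPKM, ZEB2 10.04 ± 0.378 FPKM and ZEB1 3.01 ± 0.138 FPKM. TWIST2, at 2.63 ± 0.408 FPKM, overlapped ZEB1 in its range over the NC libraries. Every other pair of neighbours in the NC order was apart. SNAI3 (0.21 ± 0.05 FPKM) and SNAI1 (0.06 ± 0.0656 FPKM) came last.

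The order of the first 7 genes was the same in the libraries labelled GRIK1 siRNA, but the distances differed. TWIST1 was 2.05-fold above PRRX1 in NC and 1.48-fold above it in the libraries labelled GRIK1 siRNA. VIM was 15.5-fold and 21.1-fold above SNAI2. ZEB1 and TWIST2 no longer overlapped there, with 3.54 ± 0.377 and 1.85 ± 0.306 FPKM. SNAI1 and SNAI3 overlapped each other.

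**Figure D1:**
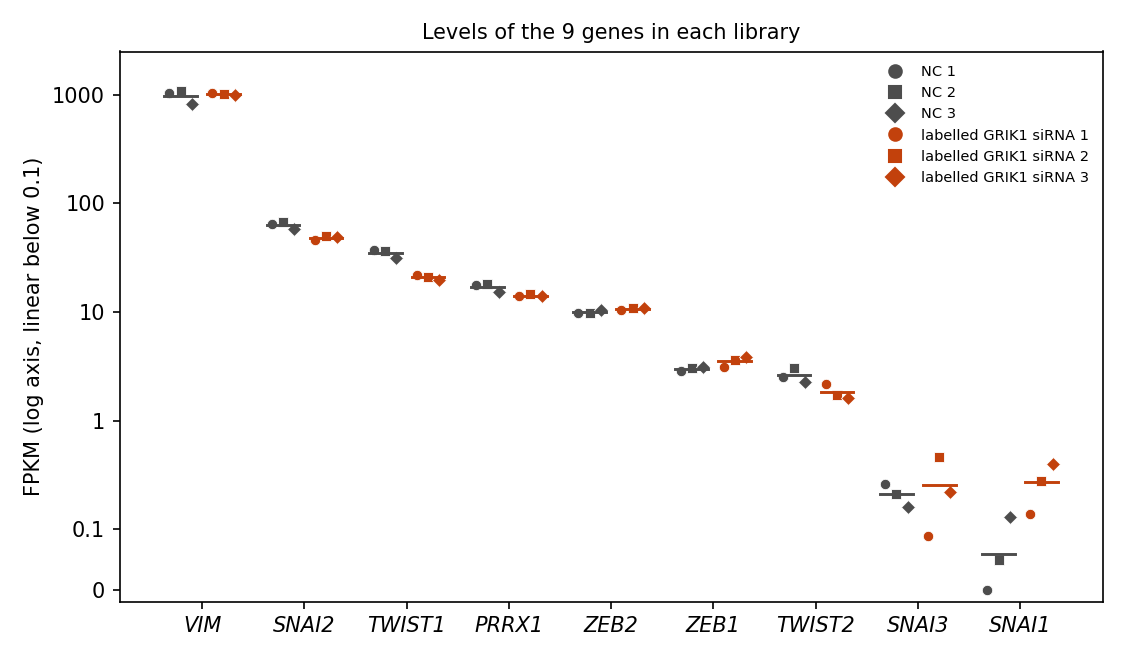
FPKM of the 9 genes in each of the 6 libraries, on a log axis that is linear below 0.1, with grey points for NC, orange points for the libraries labelled GRIK1 siRNA and short bars for the group means. VIM is highest at 825 to 1076 FPKM, 7 genes have means above 1 FPKM in both groups, and SNAI3 and SNAI1 stay below 0.5 FPKM.

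Differences between groups were tested on the counts with edgeR's quasi-likelihood test, for 15870 genes whose FPKM averaged 0.5 or more. At an adjusted p under 0.05, 3.09% of all genes tested passed, and 1.48% passed with a lower level in the libraries labelled GRIK1 siRNA. Of the set, 7 of 9 genes passed the filter and 1 of those 7 passed the test. DESeq2 called TWIST1, SNAI2 and PRRX1, beside 11.8% of the 14330 genes to which it gave an adjusted p. The groups did not overlap in normalized CPM for 4 of the 7, all lower, whereas 19.0% of all genes tested did not overlap and were lower. The median log2 fold change was −0.36 over the 7 genes and −0.017 over all genes tested.

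TWIST1 (ENSG00000122691) encodes a basic helix-loop-helix factor of mesoderm and neural crest development that is linked to glioma invasion. The table places it at 19020991 to 19117636 of chromosome 7, minus strand. NC libraries 1, 2 and 3 had 835, 819 and 874 TWIST1 counts, or 37.67, 36.87 and 31.25 FPKM. Those labelled GRIK1 siRNA held 539, 531 and 526 counts, or 21.79, 21.07 and 19.94 FPKM. The 2 groups were far apart, and the lowest NC library exceeded the highest library labelled GRIK1 siRNA on both scales. The fitted log2 fold change was −0.84 ± 0.11 (SE), with an adjusted p of 0.0240 (edgeR quasi-likelihood test, Benjamini-Hochberg). The size held at −0.86 to −0.80 when any single library was left out, but the call did not. Without NC library 3 the adjusted p was 4.72e-08, and without each of the other libraries it was between 0.0677 and 0.206, in edgeR fits in which 0 genes of the whole table passed while 2238 to 4434 had an unadjusted p under 0.05, TWIST1 among them each time. A transcript annotated inside the TWIST1 interval on the opposite strand (ENSG00000232821) had at most 7.16% of the TWIST1 count in any library.

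TWIST2 (ENSG00000233608), the close relative of TWIST1 known from skin and bone development, lies on the plus strand of chromosome 2 (238848032 to 238910534). It had 52, 64 and 60 counts in NC, against 51, 41 and 40 under the GRIK1 siRNA label. After scaling, these were 4.63, 5.75 and 4.83 normalized CPM against 4.01, 3.17 and 2.96, so the groups did not overlap. The log2 fold change of TWIST2 was −0.58 ± 0.21 (SE), with an adjusted p of 0.153 (edgeR). The longest identical stretch that the transcripts of TWIST1 and TWIST2 share was 23 bases. The ratio of TWIST1 to TWIST2 FPKM overlapped between the groups, at 13.5 ± 1.52 in NC and 11.4 ± 1.33 in the libraries labelled GRIK1 siRNA.

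SNAI2 (ENSG00000019549), also called SLUG, is the zinc finger repressor of neural crest migration and of CDH1, and it lies on the minus strand of chromosome 8 (48917598 to 48921740). SNAI2 stood at 65.16, 66.80 and 58.14 FPKM in NC, against 46.34, 49.89 and 48.93 FPKM in the other group. Each of the latter lay below all NC libraries. In counts these were 2373, 2438 and 2672 against 1883, 2066 and 2121. The log2 fold change of −0.47 ± 0.11 (SE) had an adjusted p of 0.0618 in edgeR with all 6 libraries, just above the threshold of 0.05. Without NC library 3 the change had the same size (−0.47 ± 0.049) and an adjusted p of 1.14e-06. An antisense transcript at the SNAI2 locus (ENSG00000288761) had 11 to 21 counts per library, at most 1.12% of the SNAI2 count.

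PRRX1 (ENSG00000116132) encodes a homeodomain factor of limb and craniofacial mesenchyme and lies on the plus strand of chromosome 1 (170662728 to 170739421). PRRX1 counts of 1638, 1675 and 1775 in NC compare with 1426, 1525 and 1519 under the GRIK1 siRNA label. As FPKM, these were 17.89, 18.26 and 15.36 against 13.96, 14.65 and 13.94. The groups of PRRX1 values were again apart, but by less than those of SNAI2 and TWIST1. The log2 fold change was −0.36 ± 0.10 (SE), with an adjusted p of 0.102 in edgeR. Without NC library 3 it was −0.38 ± 0.051, with an adjusted p of 2.04e-05.

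**Figure D2:**
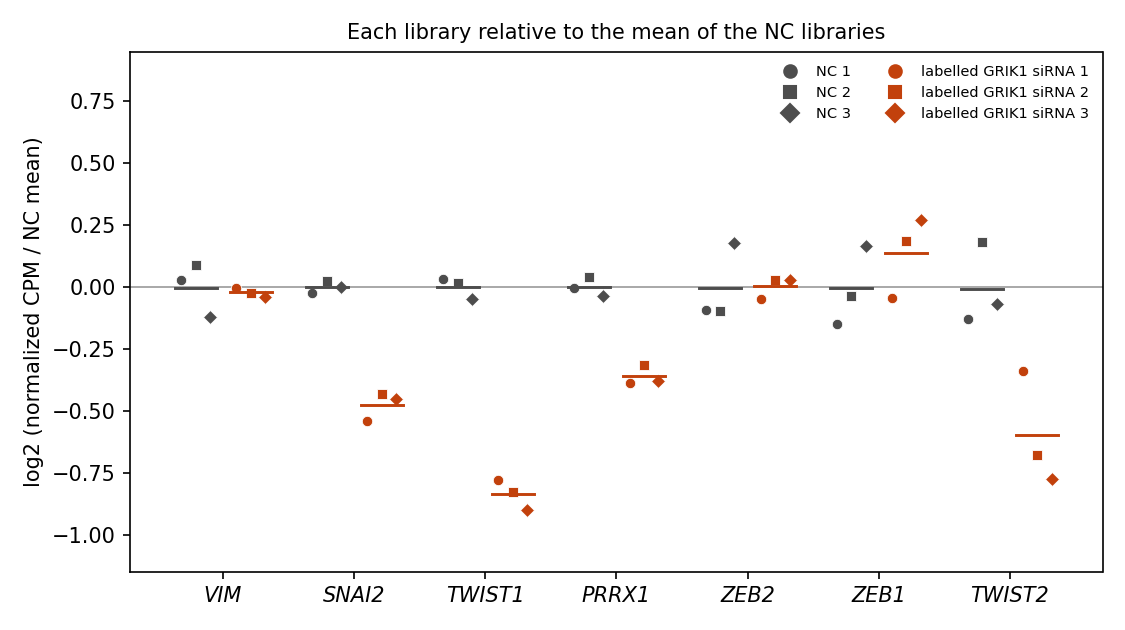
Normalized CPM of the 7 tested genes in each library as a log2 ratio to the mean of the 3 NC libraries, with short bars for the means of these ratios. All 3 libraries labelled GRIK1 siRNA (orange) lie below all NC libraries (grey) for SNAI2, TWIST1, PRRX1 and TWIST2, and the groups overlap for VIM, ZEB2 and ZEB1.

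Both ZEB genes overlapped between the groups in normalized CPM. ZEB1 (ENSG00000148516, chromosome 10, 31318495 to 31529814, plus strand) and ZEB2 (ENSG00000169554, chromosome 2, 144364364 to 144521057, minus strand) encode large proteins with 2 groups of zinc fingers around a homeodomain. ZEB1 had 2.85, 3.06 and 3.11 FPKM in NC, against 3.12, 3.65 and 3.85 FPKM in the other group. On this scale the lowest of the latter lay just above the highest NC library. In normalized CPM, which corrects for the make-up of the libraries, the ranges were 24.4 to 30.3 and 26.2 to 32.6 and overlapped. The ZEB1 log2 fold change was 0.14 ± 0.14 (SE), with an adjusted p of 0.555 (edgeR), and it was 0.24 ± 0.10 without NC library 3 (adjusted p = 0.0930).

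ZEB2 had 2870, 2839 and 3834 counts in NC, against 3364, 3610 and 3759 in the other group. NC library 3 held the highest normalized level of the 6, with 308 CPM, and NC libraries 1 and 2 the lowest, with 256 and 255 CPM. The other 3 lay between them, at 264 to 279 CPM. The log2 fold change was 0.0043 ± 0.13 (SE), with an adjusted p of 0.986 in edgeR, and 0.10 ± 0.046 without NC library 3 (adjusted p = 0.0924). The direction of ZEB2 changed sign in 5 of 13 alternatives, and its size stayed between −0.043 and 0.10. ZEB1-AS1, the antisense RNA at the ZEB1 start, had 30 to 48 counts, up to 16.3% of the ZEB1 count, and overlapped between groups. ZEB2-AS1 varied widely, with 19, 31 and 8 counts in NC against 13, 56 and 53 in the other group, never above 1.55% of the ZEB2 count. The counting's strand setting is not given in the sources used here, so reads of a gene and of its antisense partner cannot be told apart.

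VIM (ENSG00000026025, chromosome 10, 17228241 to 17237593, plus strand) encodes vimentin, the intermediate filament protein of mesenchymal and glial cells. The NC libraries held 59912, 61958 and 59785 VIM counts, against 66521, 66766 and 68733 under the GRIK1 siRNA label. Counts were higher in each of the latter, whose libraries were also deeper than NC libraries 1 and 2. As a share of all counts, VIM took 0.508% ± 0.0707 in NC and 0.529% ± 0.00842 in the other group (SD, n = 3), and the NC range of 0.427% to 0.557% enclosed the other. The log2 fold change was −0.022 ± 0.15 (SE), with an adjusted p of 0.937 in edgeR, and its sign changed in 4 of 13 alternatives. Without NC library 3, which had the lowest VIM level, it was −0.078 ± 0.041 (adjusted p = 0.153). VIM-AS1 had 81 to 122 counts per library, at most 0.204% of the VIM count.

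SNAI1, the Snail repressor that starts the transition in many epithelial models, and SNAI3, its less studied relative, were below the filter. SNAI1 (ENSG00000124216, chromosome 20, 49982980 to 49988886, plus strand) had 0, 1 and 3 counts in NC, against 3, 6 and 9 in the other group. NC library 3 and library 1 labelled GRIK1 siRNA met at 3 counts, the level that a count of 0 still allows. Pooled, 4 against 18 counts gave a ratio per total count of 4.27 (95% exact interval 1.41 to 17.3, counting error only). In the edgeR fit without a filter, in which 4.12% of 34080 genes passed, the SNAI1 log2 fold change was 1.88 ± 0.92 (SE), with an adjusted p of 0.298.

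SNAI3 (ENSG00000185669, chromosome 16, 88677688 to 88686507, minus strand) had 5, 4 and 4 counts in NC, against 2, 10 and 5 in the other group. Its groups overlapped, and the ratio of pooled counts was 1.24 (95% exact interval 0.567 to 2.78). SNAI3-AS1, which covers the SNAI3 interval on the opposite strand, had 35 to 73 counts per library, several times the count of SNAI3 itself. The longest identical stretch shared by the SNAI1 and SNAI3 transcripts was 30 bases, and that shared by SNAI1 and SNAI2 was 11 bases.

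How many genes of the set passed depended on the libraries used. Without any single library but NC library 3, 0 of the 7 passed in edgeR (2 to 4 at an unadjusted p under 0.05). Without NC library 3, TWIST1, SNAI2, PRRX1 and TWIST2 passed in edgeR, all lower, with TWIST2 at −0.62 ± 0.22 (SE) and an adjusted p of 0.0404. In that fit 35.2% of all genes tested passed, and 18.3% passed with a lower level. The fitted changes of the 4 genes moved little between the fits, while the standard errors of TWIST1, SNAI2 and PRRX1 became smaller.

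**Figure D3:**
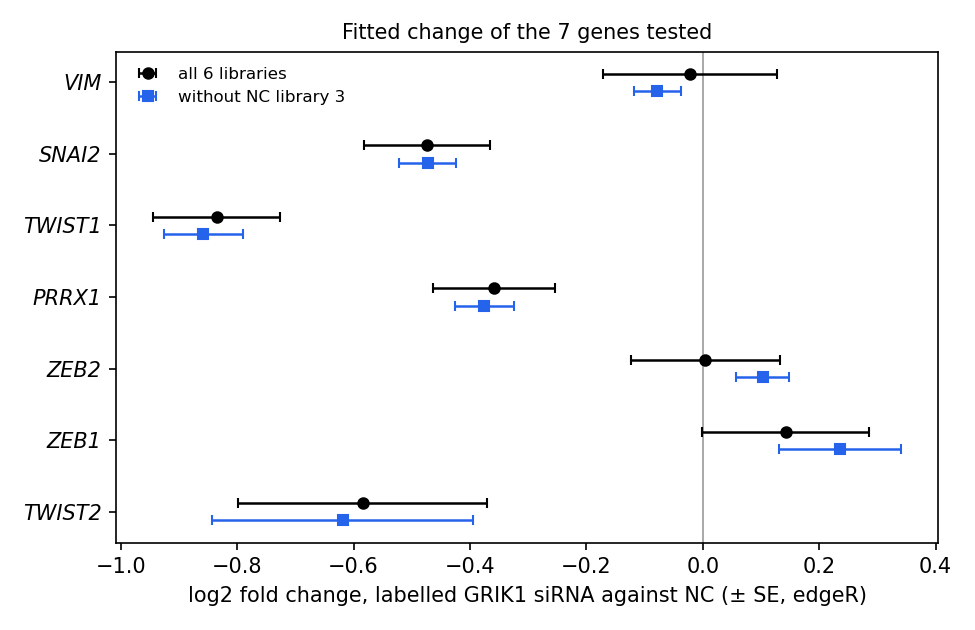
Fitted log2 fold change of the 7 tested genes, labelled GRIK1 siRNA against NC, with bars of 1 standard error from edgeR, for all 6 libraries (black circles) and without NC library 3 (blue squares). TWIST1 is at −0.84 and −0.86, and ZEB1, ZEB2 and VIM lie within 0.24 of 0 in both fits.

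Among the factor transcripts, the share of TWIST1 was lower in every library labelled GRIK1 siRNA than in any NC library. The 8 factors summed to 131.7 ± 9.43 FPKM in NC and 100.2 ± 2.35 FPKM in the other group, and the ranges of 120.9 to 138.1 and 98.0 to 102.7 FPKM did not overlap. SNAI2 made up 48.1% ± 0.272 of this sum in NC and 48.3% ± 0.918 in the libraries labelled GRIK1 siRNA. TWIST1 took 26.7% ± 0.903 and 20.9% ± 1.17. ZEB2 took 7.66% ± 0.869 and 10.7% ± 0.163, ZEB1 2.29% ± 0.249 and 3.53% ± 0.338, and PRRX1 13.0% ± 0.277 and 14.2% ± 0.164. The shares of TWIST1, ZEB2, ZEB1 and PRRX1 were apart between the groups, and those of SNAI2 and TWIST2 overlapped. Shares of a sum are not independent of each other.

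Ratios within a library do not depend on the scaling between libraries, and 6 pairs were compared, chosen after the values were seen. There was 0.556 ± 0.0206 FPKM of TWIST1 per FPKM of SNAI2 in NC and 0.433 ± 0.0328 in the libraries labelled GRIK1 siRNA, with no overlap. The TWIST1 to ZEB2 ratio was 3.52 ± 0.467 against 1.95 ± 0.134, the SNAI2 to ZEB2 ratio 6.33 ± 0.684 against 4.51 ± 0.0507, and the SNAI2 to PRRX1 ratio 3.70 ± 0.0783 against 3.41 ± 0.0954, all apart. Each of these 4 had p = 0.1 in a two-sided exact permutation test, the smallest that 3 against 3 libraries can give, and an adjusted p of 0.15 over the 6 pairs. The ratio of ZEB2 to ZEB1 overlapped, at 3.34 ± 0.142 and 3.05 ± 0.256 (exact permutation p = 0.2, adjusted p = 0.24).

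**Figure D4:**
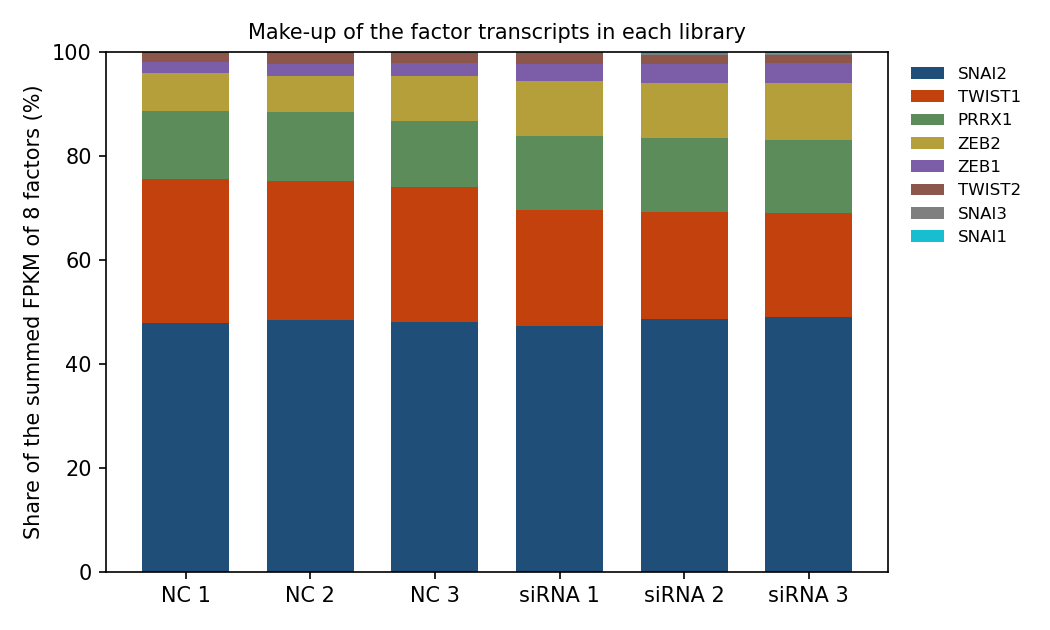
Stacked bars of the share of each of the 8 factors in their summed FPKM (percent), for the 3 NC libraries and the 3 libraries labelled GRIK1 siRNA (siRNA 1 to 3). The TWIST1 share lies between 25.8% and 27.7% in NC and between 19.98% and 22.2% in the others, while SNAI2 stays between 47.3% and 49.0%.

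Across the 6 libraries, SNAI2, TWIST1 and PRRX1 varied together. The Pearson correlation of log2 CPM was 0.99 for SNAI2 with PRRX1, 0.99 for TWIST1 with PRRX1 and 0.98 for SNAI2 with TWIST1, and TWIST2 correlated with TWIST1 at 0.90. ZEB1 and ZEB2 correlated at 0.74 with each other, and ZEB2 and VIM at −0.95. These values describe 6 libraries that share 2 groups and 1 library that stands apart, so they are largely set by those. The genes of the table closest to TWIST1 were FPGS, a folate enzyme, and HMGA1, a chromatin protein, at 0.998 and 0.997. HMGA1 went from 221 ± 16.4 to 94.5 ± 3.04 FPKM, a log2 fold change of −1.31 (adjusted p = 0.0191, edgeR). For SNAI2 the closest were PTGR2 and OCIAD1, for PRRX1 ALG12 and ITGB3, for TWIST2 CCDC106 and CPNE8-AS1, for ZEB1 a pseudogene of SMS and TOP2B, for ZEB2 ATAD1 and RANBP6, and for VIM EML2 and STK33, all at correlations of at least 0.974.

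Genes around these factors were read from 12 lists with 180 different genes, of which 117 were tested. Of those, 4 passed with a higher level and 3 with a lower level. The lists are described by their counts, beside 1.61% higher and 1.48% lower over all genes tested and the overall median of −0.017. Counts at an unadjusted p under 0.05 stand beside 3987 of all 15870 genes tested in the same edgeR fit.

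Other transcription factors of the transition had 11 of 17 genes tested. HMGA2, a chromatin protein that can induce SNAI1 and TWIST1, fell from 7250, 7206 and 5402 counts to 3500, 3863 and 3935 (log2 fold change −0.998 ± 0.18, adjusted p = 0.0387 in edgeR). No other gene of this list passed in that edgeR fit or in DESeq2. Without NC library 3, 1 gene of the list was called higher and 3 lower in edgeR, beside 16.9% and 18.3% of all genes tested. PRRX2, the relative of PRRX1, had a log2 fold change of −1.05 ± 0.36 and an adjusted p of 0.135 in edgeR with all 6 libraries. It passed in the edgeR fit without a filter (−1.07 ± 0.30, adjusted p = 0.0408) and in that without NC library 3 (−1.35 ± 0.21, adjusted p = 6.61e-05). The list's median was −0.17. None of the 8 tested partners and inhibitors of TWIST proteins passed (edgeR, 3 of 8 at an unadjusted p under 0.05), and their median was −0.091, and DESeq2 called 0 as well. TCF3, whose products pair with TWIST1, was at 0.14 ± 0.16, and ID3, which takes such partners away, at −0.42 ± 0.17 (adjusted p = 0.179 in edgeR). Its relative ID4 went the other way, at 0.55 ± 0.18 (adjusted p = 0.129), and HAND2 was at −0.71 ± 0.28 (adjusted p = 0.173). Without NC library 3, TCF3, ID3, ID4 and HAND2 were at −0.014, −0.25, 0.48 and −0.66.

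Co-repressors and cofactors, through which SNAI and ZEB proteins silence genes, had 0 of 14 tested genes that passed (edgeR, 3 at an unadjusted p under 0.05; DESeq2 called LIMD1) and a median of −0.20. HDAC1 was at −0.30 ± 0.10, CTBP1 at −0.15 ± 0.20 and SMARCA4 at 0.52 ± 0.24. When NC library 3 was left out, CTBP1 was at −0.34 ± 0.058 (adjusted p = 0.000219), SMARCA4 at 0.28 ± 0.057 (adjusted p = 0.00103) and HDAC1 at −0.28 (adjusted p = 0.000389). Of 15 tested enzymes that control the stability of SNAI proteins, 0 passed in edgeR (5 at an unadjusted p under 0.05), with a median of 0.093, and DESeq2 called FBXW7, FBXL14 and MDM2. FBXL14 and FBXL5, ubiquitin ligase subunits of which SNAI proteins are targets, were at −0.73 ± 0.17 (adjusted p = 0.0659) and −0.67 ± 0.23 (adjusted p = 0.133). MDM2 and FBXW7 were higher, at 0.49 ± 0.11 (adjusted p = 0.0550) and 0.56 ± 0.15 (adjusted p = 0.0862) in edgeR. Of the 15, 3 lay apart and lower between the groups and 3 apart and higher, beside 19.0% and 19.4% of all genes tested. FBXL5 was at −0.35 ± 0.074 without NC library 3 (adjusted p = 0.00138).

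Inducers of the transition had 20 of 21 genes tested and a median of −0.035. SMAD3, which carries the TGF-beta signal to the nucleus, fell by 0.59 on the log2 scale (SE 0.12, adjusted p = 0.0445 in edgeR), from 2265, 2289 and 2193 counts to 1627, 1698 and 1737. No other inducer passed in that fit with all 6 libraries, while DESeq2 called 6 (TGFB1, TGFB2, TGFBR1, SMAD3, WNT5A and STAT3). In edgeR the ligand TGFB1 and the receptor TGFBR1 were at −0.56 ± 0.12 (adjusted p = 0.0503) and −0.72 ± 0.16 (adjusted p = 0.0554). JAG1 and STAT3 went the other way, at 0.74 ± 0.26 (adjusted p = 0.141) and 0.46 ± 0.11 (adjusted p = 0.0696). Without NC library 3, 5 inducers were called higher and 7 lower in edgeR, beside 16.9% and 18.3% of all genes tested. TGFB1 was then at −0.61 (adjusted p = 1.26e-06), TGFBR1 at −0.55 (adjusted p = 1.16e-06), JAG1 at 0.47 (adjusted p = 0.000235) and STAT3 at 0.42 (adjusted p = 4.87e-05). With all 6 libraries, 7 of the 20 tested lay apart and lower between the groups and 5 apart and higher. Over all genes tested, these shares were 19.0% and 19.4%.

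Mesenchymal markers had a median of 0.52 over 19 of 22 genes tested, with 14 of them positive, beside 7712 of all 15870 genes tested. In edgeR 10 of the 19 had an unadjusted p under 0.05. The groups lay apart and higher for 10 of them and apart and lower for 2, beside 19.4% and 19.0% of all genes tested. SPARC, a matrix glycoprotein, rose from 6818, 6945 and 5219 counts to 24644, 24550 and 25633 (log2 fold change 1.80 ± 0.19, adjusted p = 0.0191 in edgeR). COL5A1, a fibrillar collagen chain, went from 1911, 1742 and 596 counts in NC to 7151, 7566 and 7934 (2.21 ± 0.43, adjusted p = 0.0433). AXL, a receptor tyrosine kinase, rose by 0.52 ± 0.11 on the log2 scale (adjusted p = 0.0489). The remaining 16 did not pass in edgeR, among them CDH2 (N-cadherin) at 0.081 ± 0.14 and FN1 (fibronectin) at 0.91 ± 0.52. DESeq2 called 9 of the 19, beside 11.8% of the 14330 genes to which it gave an adjusted p. It added TAGLN, COL1A1, COL1A2, ITGA5 and FBN1, all higher, and S100A4, which was lower (−0.82 ± 0.22 in edgeR). NC library 3 was far below the other NC libraries for several matrix genes, with 2799 FN1 counts against 12745 and 12044, and without it FN1 was at 0.47 ± 0.047 (adjusted p = 7.70e-07), CDH2 was at −0.031, and 11 of the 19 were called higher and 3 lower, beside 16.9% and 18.3% of all genes tested.

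Of 25 epithelial genes 8 were above the filter, with a median of −0.20, and the other 17 had at most 38 counts in any library. CDH1, the classical target of the SNAI and ZEB repressors, had 7, 9 and 8 counts in NC against 9, 7 and 8 in the other group. MUC1, a membrane mucin, rose from 70, 68 and 24 counts to 372, 355 and 362 (2.56 ± 0.37, adjusted p = 0.0291 in edgeR), and no other gene of the list passed in that fit. Without NC library 3, 1 gene of the list was called higher and 2 lower, beside 16.9% and 18.3% of all genes tested. KRT8, at −0.57 ± 0.16 (adjusted p = 0.0936 in edgeR), was called by DESeq2 beside MUC1. Regulators of the mesenchymal state of glioblastoma had 0 of 14 genes past the test with all 6 libraries (edgeR, 5 at an unadjusted p under 0.05, and STAT3 and TGFBI called by DESeq2). Their median was 0.063, with STAT3 at 0.46 ± 0.11 (adjusted p = 0.0696) and TGFBI at 0.76 ± 0.26 (adjusted p = 0.135). Without NC library 3, 5 of the 14 were called higher and 3 lower in edgeR, beside 16.9% and 18.3% of all genes tested. STAT3 was then at 0.42 ± 0.062 (adjusted p = 4.87e-05) and TGFBI at 0.51 ± 0.041 (adjusted p = 4.72e-08).

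Of 10 proneural genes, 2 were tested and neither passed (edgeR, 0 at an unadjusted p under 0.05, and 0 called by DESeq2), namely NCAM1 at 0.40 ± 0.26 and OLIG2 at 0.093 ± 0.34. They were at 0.13 and −0.030 without NC library 3. Intermediate filament genes and their partners, the neighbours of VIM by function, had 5 of 11 tested. LMNB1, a nuclear lamin, fell from 177, 156 and 141 counts to 92, 103 and 89 (−0.92 ± 0.18, adjusted p = 0.0444 in edgeR). PLEC, which links vimentin to other structures, was at 0.80 ± 0.39, and at 0.44 ± 0.068 without NC library 3 (adjusted p = 8.93e-05). GFAP, the filament protein of astrocytes, was below the filter with 13, 11 and 8 counts in NC against 39, 36 and 38 in the other group. It passed in the edgeR fit without a filter (log2 fold change 1.61 ± 0.36, adjusted p = 0.0109).

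**Figure D5:**
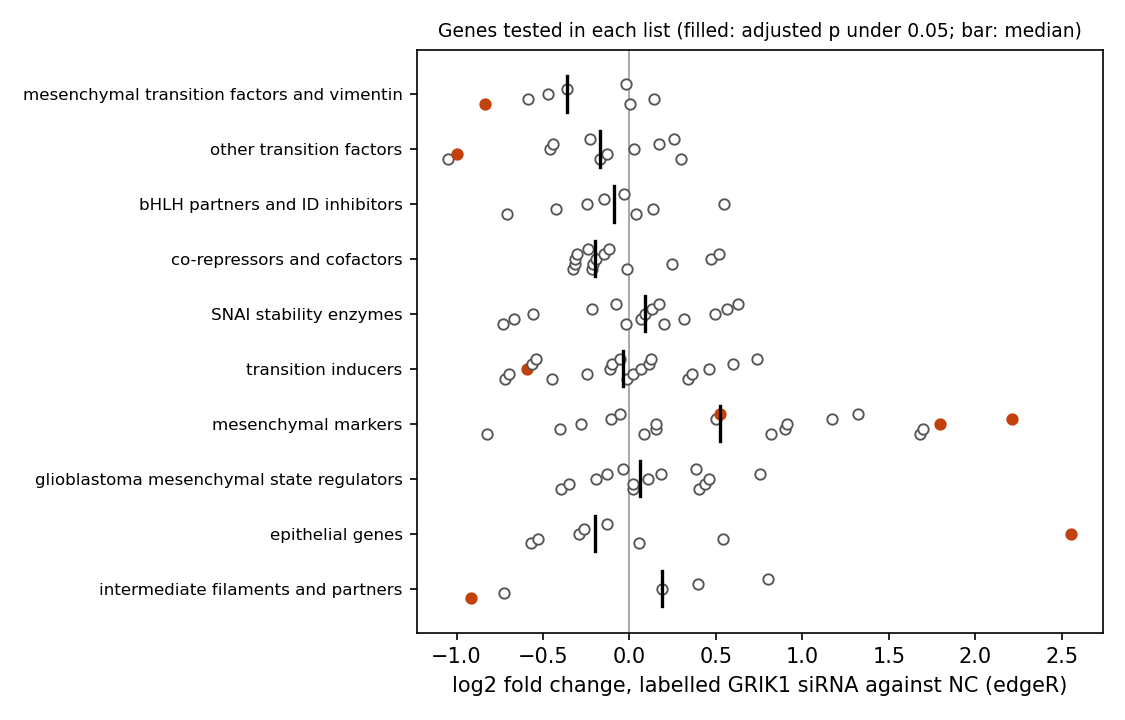
Log2 fold change (labelled GRIK1 siRNA against NC, edgeR, all 6 libraries) of each tested gene in the 9 genes of the set and in 9 of the related lists, with filled points for an adjusted p under 0.05 and black bars for the median of a list. TWIST1 at −0.84 is the filled point of the first line, and the mesenchymal markers have the highest median, 0.52.

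Promoter windows of RefSeq (GRCh38.p14, 250 bases before to 50 after a start) were searched for the E-box CANNTG on both strands. Among all 35116 windows 68.7% held it, and 20.6% held its form CACCTG on either strand. ZEB1 had 7 windows, with 0 to 3 E-boxes each. Of these, 3 held 0 E-boxes and 5 held 0 of the form CACCTG, and the window richest in that form, at chr10:31318966-31319265, held 3. ZEB2, TWIST2, PRRX1 and VIM had 1 window each, which held 1 E-box (CACATG) for ZEB2 and 0 for the others. No window was available for TWIST1, SNAI1, SNAI2 or SNAI3, so their promoters were not examined. A match is not a bound site.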

How the data were processed

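Total RNA of 6 U87-MG libraries was sequenced. Per the submitters' processing notes, cutadapt 1.9.1, HISAT2, HTSeq and the GRCh38 build were used, and the strand setting is not given in the sources used here. The authors deposited whole-number read counts per gene without normalization, and FPKM values in which the authors divided each count by exonic size and library total (recomputing them gave 100% of the values within 0.011 FPKM). Of the columns of sample values, 0 were left unassigned, and 0 entries named no gene. Samples were grouped by their titles.

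Counts were tested with edgeR 4.0.16 (quasi-likelihood, TMM, Benjamini-Hochberg over 15870 genes with a mean FPKM of at least 0.5, R 4.3.3), and called at an adjusted p under 0.05. Genes below the filter were read from a fit without it. Correlations used log2 CPM with a prior count of 2. Intervals are exact at 95% and, like the limit of 3 counts that a count of 0 allows, cover counting error only. Total counts of 11099909 to 14006968 set the precision. DESeq2 1.42.0, limma 3.58.1, other scaling and filters, a replicate block and leaving out each library were the alternatives. Python 3.11.15 with scipy 1.17.1 and matplotlib 3.10.9 served the rest.

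The 9 genes and the 12 lists were chosen with earlier results of these data known. Named genes are the 9, GRIK1, genes overlapping a member, called genes of each list (at most 5; where fewer than 2 were called, also the 2 with the highest FPKM and the 2 with the largest change) and the 2 genes most correlated with each member. Cell type markers, CDH1 and GFAP were also given. Other genes outside the rule, such as CDH2, FN1 and TGFB1, were chosen after their values were seen. The table lacked a symbol for 20417 genes, and symbols for 688 came from a reference of gene names. Single-nucleus data were not analysed here.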

Additional observations from a re-analysis of the deposited data

How the results depend on the processing

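With 3 libraries a group and 1 that stands apart, the number of calls depended on the libraries and the tool more than the sizes of the changes did. Of the 9 genes, 1 passed with all libraries. DESeq2 called 3 of them, and leaving out 1 library gave 0 to 4, with 4 only without NC library 3. In the related lists 7 genes passed. DESeq2 called 24, limma 4 and 3 (pseudocounts of 1 and 0.1), the fit without a filter 18, and leaving out 1 library 0 to 61. Over all genes tested, 490 passed, against 1684 in DESeq2, 280 in limma with a pseudocount of 0.1, 1403 without a filter and 0 to 5591 without 1 library. The TWIST1 change lay between −0.86 and −0.80 without 1 library.

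The replicate numbers of the labels were also tried as a block. Deviations from the group means of same-numbered libraries correlated at −0.070, 0.044 and −0.043, and those of differently numbered libraries at −0.061 to 0.084. Such values cannot decide whether the numbers pair the libraries, since deviations within a group depend on each other and an NC library stands apart. The block left 0 of the 9 genes, 0 in the lists and 0 of all genes (edgeR, 3324 at an unadjusted p under 0.05, SNAI2, TWIST1 and PRRX1 among them), and TWIST1 kept its size at −0.84 with an adjusted p of 0.0946 (edgeR).

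Some values that had not passed with all libraries changed sign, with the cause not tested. Without a filter ZEB2 was −0.025. VIM was 0.068 in limma at a pseudocount of 1 or 0.1, and 0.00095 with a minimum of 1 FPKM. Leaving out 1 library gave ZEB2 −0.043 to 0.10, VIM −0.078 to 0.024, SNAI3 −0.50 to 0.56, TCF3 −0.014 to 0.23, CSNK1E −0.0056 to 0.29, OLIG2 −0.086 to 0.45, LMNA −0.023 to 0.32 and MIR34AHG −0.23 to 0.31. The negative values of TCF3, CSNK1E, LMNA and MIR34AHG came without NC library 3, where MIR34AHG had an adjusted p of 0.0134. A change of SNAI3 was not detectable at this depth.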
